A study of Mus with 4 samples.

Results

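Proteoglycan core proteins are the proteins to which chondroitin, dermatan, keratan or heparan sulphate chains are attached, and mRNAs for 10 of them, Bcan, Ncan, Acan, Vcan, Dcn, Bgn, Lum, Fmod, Hspg2 and Agrn, were followed in a murine podocyte cell line given the active form of the transcription factor OASIS. The 10 genes are among 26893 named on the array, and every probe carrying one of their symbols was taken, which gave 17 of 56605 probes. The genes were chosen by their biology and with the OASIS against Venus differences in log2 intensity on these same arrays already known, so that their differences are given as a description, without a test.

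The podocytes were an immortalized line, differentiated for 10 to 14 days without interferon-γ, and no primary podocytes were on the arrays. Both groups received a lentivirus for 24 h with polybrene, at a multiplicity of infection of 200 to 500. The control group, Venus, received the vector for a fluorescent protein, and the OASIS group received the vector for the N-terminal fragment of OASIS/Creb3l1, built on pCSII-EF rather than on a podocyte promoter. Total RNA was taken 48 h after the vectors were added, from 2 samples of each group, and the labels do not say whether these came from separate cultures, so that p-values measure only the spread between these samples.

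The lecticans, brevican (Bcan), neurocan (Ncan), aggrecan (Acan) and versican (Vcan), bind hyaluronan at one end and are held there by link proteins of the Hapln family. Brevican and neurocan are known from the matrix around neurons and glia, aggrecan from cartilage and versican from many loose connective tissues. The small leucine-rich members, decorin (Dcn), biglycan (Bgn), lumican (Lum) and fibromodulin (Fmod), sit on collagen fibrils and bind growth factors. Perlecan (Hspg2) and agrin (Agrn) carry heparan sulphate in basement membranes, and agrin is the main heparan sulphate proteoglycan of the glomerular basement membrane, to which podocytes contribute. In the Gene Ontology terms deposited with the array, the term hyaluronic acid binding held the 4 lecticans among 23 genes in all, and the term basement membrane held Acan, Agrn and Hspg2 among 104.

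The 4 arrays shared 1 slide and 1 scan. Each held 59305 spots besides control spots, of which 33938 to 34418 were well above background, and no spot was saturated. Values are log2 intensities from which the array's own 75th percentile was subtracted, so that 0 is a probe at that percentile. The dimmest probes well above background lay between -6.15 and -6.10 on this log2 scale, and a value below that has no measured level. Levels of different probes are not set against each other, since probes differ in how well they bind. The probe for Creb3l1, the gene of OASIS, differed by -0.17 (SE 0.10, limma adjusted p = 0.298) and thus did not show the vector, and which part of the transcript it reads was not analysed here. The study ran an immunoblot for OASIS protein 48 h after transfection and describes the podocytes as overexpressing OASIS. Of 10 podocyte markers, 7 were tested, while genes such as Nphs1 and Ptpro were not well above background on both arrays of either group.

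Bcan was the member with the widest separation between the groups, and it was measured in the OASIS group only. By their measured probes, Vcan, Fmod, Bgn and perlecan differed by at most 0.29 between the groups, decorin and agrin lay lower with OASIS by less than 1 on the log2 scale, Acan and Lum had no measured level on any array, and Ncan had one on a single OASIS array. Of the 10 genes, 6 had a probe well above background on both Venus arrays and 7 on both OASIS arrays, and the gene that made the difference was Bcan. In bulk RNA of this kind, fewer cells that express a gene and less RNA of it per cell cannot be told apart.

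**Figure D1:**
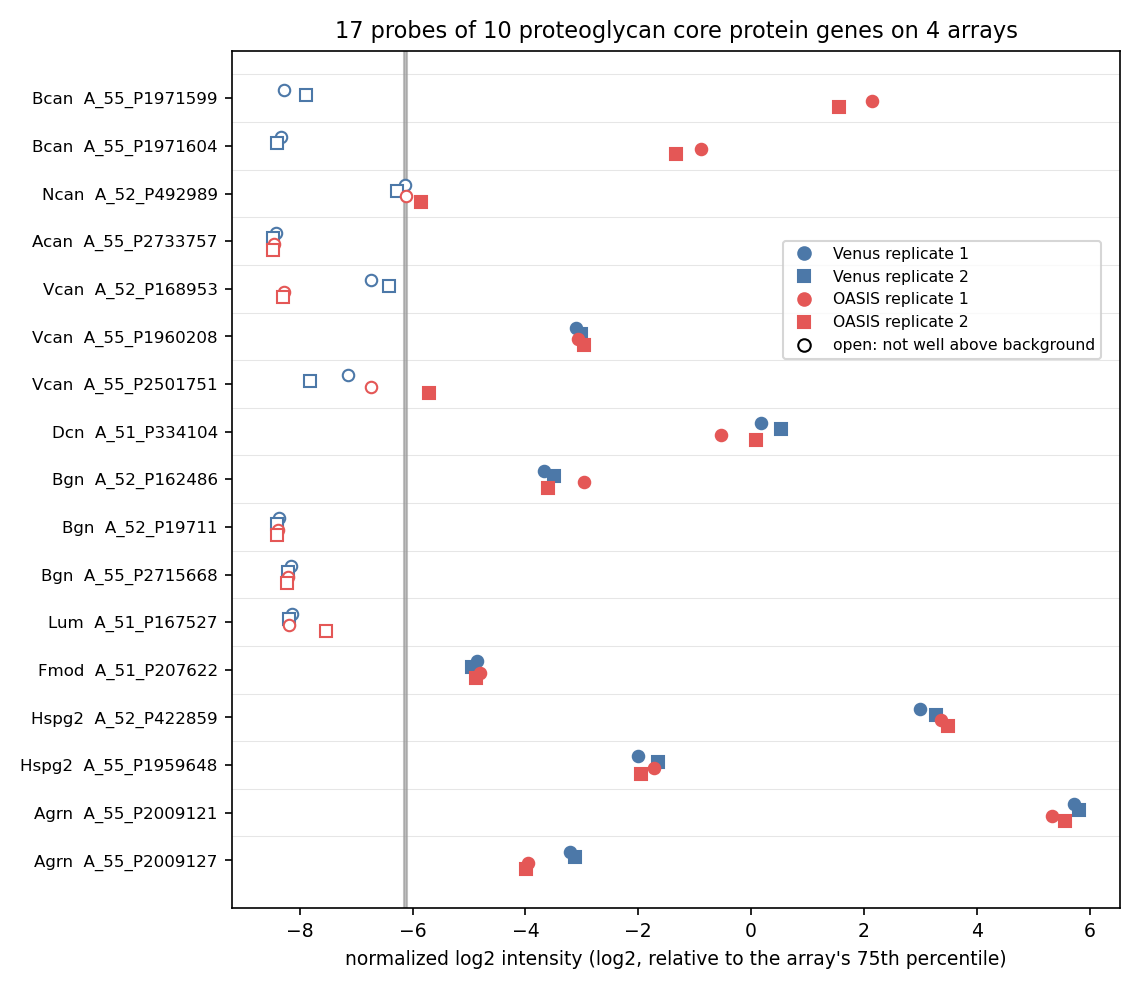
The horizontal axis gives the normalized log2 intensity (log2, relative to the 75th percentile of the array) of the 17 probes of the 10 genes, one row per probe, with circles and squares for replicates 1 and 2, Venus in blue and OASIS in red. Open symbols are spots not well above background, and the grey band marks the dimmest well-measured probes (-6.15 to -6.10); the 2 Bcan rows have open Venus symbols far to the left and filled OASIS symbols to the right of the band.

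Bcan, on chromosome 3 in band qF1, had 2 probes, annotated to separate transcripts. The probe A_55_P1971599, annotated to transcript variant 1 (NM_007529), had log2 values of -8.28 and -7.89 with Venus, against 2.14 and 1.56 with OASIS. In corrected intensity, these were 2.98 and 4.17 units with Venus, each about as large as its scanner error of 2.99 and 3.10 units, and 4199.5 and 2846.05 units with OASIS. The Venus spots were not well above background, and the OASIS group was at least 251-fold brighter by this probe. For such a bound, the OASIS mean was set against the dimmest probes well above background on the Venus arrays, since the Venus level itself was not measured. The fitted log2 difference of 9.93 (SE 0.25) rests on the Venus values below that floor and is no measured size.

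The other Bcan probe, A_55_P1971604, annotated to transcript variant 2 (NM_001109758), gave log2 values of -8.33 and -8.41 with Venus and -0.89 and -1.33 with OASIS. Its intensities were 2.88 and 2.91 units with Venus and 516 and 385 units with OASIS. The Venus spots were again not well above background, and the OASIS group was at least 32.3-fold brighter. The OASIS arrays stood well apart from the Venus arrays by both probes, and the OASIS replicates differed from each other by 0.58 and 0.44 on the log2 scale. Some of the spots of A_55_P1971604 carried marks for an uneven or outlying local background, 3 marks over the 4 arrays, and the authors' detection score on the OASIS arrays was 1 rather than 2 there.

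These 2 Bcan probes were the member probes past the threshold, a change of more than 2-fold in either direction with an adjusted p below 0.1, that is 2 of the 10 member probes tested, both higher with OASIS. Over the array, 8.36% of the 31598 probes tested passed it, 5.89% higher and 2.47% lower with OASIS. Since the members were picked with this contrast known, nothing is read from the count. The median log2 difference of the 10 probes was 0.055, beside -0.069 over all probes tested.

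Bcan being a gene of neurons and glia, a list of 10 neural and glial markers was set beside it. Of these, 6 were tested and 2 were called by the fit, Sox10 and Syt1, both higher with OASIS and both tested only through the OASIS arrays, beside 8.06% of the 16318 genes tested, 6.21% higher and 1.85% lower. Sox10, a transcription factor of glia and neural crest, had log2 values of -6.19 and -6.004 with Venus and -4.96 and -5.13 with OASIS. Its bound came to 2.01-fold, at the edge of the threshold and without an error margin. On Venus replicate 2, that bound used the probe's own value, which was above the floor but not well above background. Syt1, a calcium sensor of synaptic vesicles, was at least 1.32-fold higher, a bound below the 2-fold of the threshold. Neither gene was well above background on the Venus arrays, so that the size of both calls rests on unmeasured values. Markers such as Mbp, Mog and Snap25 did not pass the threshold, while Gfap, Olig1, Olig2 and Rbfox3 were not tested for want of signal, with no probe of the last 3 above background on any array. The summed scaled intensity of the whole list was 6720.85 and 6702.32 units with Venus and 5190.68 and 5285.74 units with OASIS. This sum, like those of the other marker lists, is weighted to the brightest probes, here above all to Snap25. Snap25 had log2 values of 3.29 and 3.20 with Venus and 2.89 and 2.79 with OASIS. The median log2 difference of the 6 markers tested was 0.41. The part of these markers in the Bcan result was not tested.

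Ncan, the other lectican of neural tissue, on chromosome 8 in band qB3.3, had 1 probe, A_52_P492989. Its log2 values were -6.14 and -6.27 with Venus and -6.12 and -5.84 with OASIS, all around the floor, and only OASIS replicate 2 was well above background. The probe was therefore not tested. Its spots carried a mark for an uneven or outlying local background on all 4 arrays, and the authors' detection score was 1 on each. Its groups were 0.019 apart, against a range of 0.28 between the OASIS replicates.

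Acan, on chromosome 7 in band qD3, had 1 probe with log2 values of -8.42, -8.48, -8.46 and -8.47 on the 2 Venus and 2 OASIS arrays. All 4 values were background. Of 8 chondrocyte markers, 4 were tested and none passed the threshold, beside 8.06% of all genes tested. Of these 4, 3 were higher in OASIS, Comp by 0.87 (SE 0.27, limma adjusted p = 0.0803), Sox9 by 0.75 (SE 0.15, adjusted p = 0.0339) and Col11a2 by 0.59 (SE 0.16, adjusted p = 0.0619) on the log2 scale. The other, Col2a1, differed by -0.25 (SE 0.19, adjusted p = 0.397), with overlapping groups. The summed scaled intensity of that list was 358.581 and 346.087 units with Venus and 565.116 and 505.31 units with OASIS.

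Vcan, on chromosome 13 in band qC3, had 3 probes that did not read alike. The probe A_55_P1960208, annotated to NM_172955, was well above background on all arrays, with log2 values of -3.11 and -3.02 with Venus and -3.06 and -2.96 with OASIS. The groups overlapped, and the difference was 0.053 (SE 0.11). A further probe annotated to the same transcript, A_52_P168953, had log2 values of -6.73 and -6.41 with Venus and -8.27 and -8.29 with OASIS, none of them above background, so that the gap between its groups is one of unmeasured values. The probe A_55_P2501751, annotated to variant 1 (NM_001081249), had log2 values of -7.14 and -7.82 with Venus and -6.73 and -5.70 with OASIS, and only OASIS replicate 2 was well above background. The level of the variant read by that probe was therefore known from 1 array alone.

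**Figure D2:**
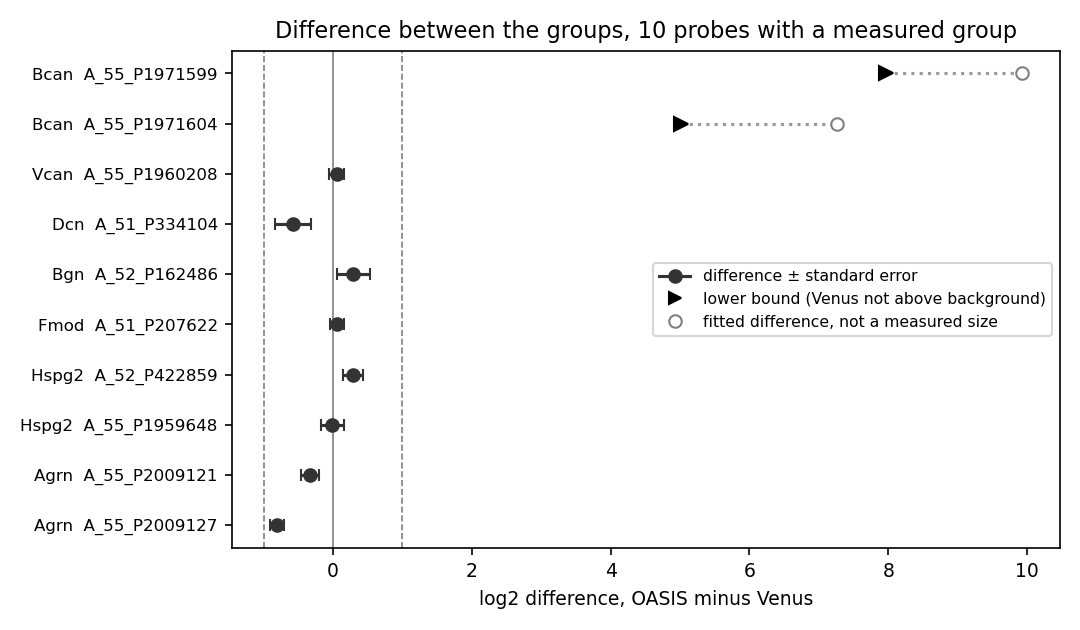
The horizontal axis gives the log2 difference, OASIS minus Venus, of the 10 member probes that were well above background on both arrays of a group, with the standard error of the limma fit as bars and dashed lines at a change of 1 up and down. For the 2 Bcan probes, whose Venus level was not measured, the triangle is the lower bound (7.97 and 5.01) and the open circle the fitted value; the other 8 probes lie between -0.81 and 0.29.

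Dcn, on chromosome 10 in band qC3, codes for decorin, which binds collagen fibrils and TGF-β. Its single probe had log2 values of 0.17 and 0.53 with Venus and -0.54 and 0.083 with OASIS. Both OASIS arrays lay below both Venus arrays, but by a gap of 0.085 against a range of 0.62 between the OASIS replicates. The difference was -0.58 (SE 0.26), and it ran from -0.89 to -0.27 when each array was left out in turn. Replicate 2 was the higher array in both groups, and with the replicate number as a block, the SE was 0.11. The labels do not state that these numbers pair the samples. Of all probes tested, 23.3% had a larger change.

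Bgn, on chromosome X in band qA7.3, codes for biglycan, a close relative of decorin that also signals through Toll-like receptors. The probe A_52_P162486, annotated to NM_007542, had log2 values of -3.67 and -3.49 with Venus and -2.96 and -3.61 with OASIS. The groups overlapped, with OASIS replicate 1 above the other 3 arrays, and the difference of 0.29 (SE 0.24) became -0.031 without that array. Its 2 other probes, annotated to Ensembl transcripts, lay between -8.41 and -8.15 on every array and were background.

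Lum, beside Dcn in the same band, had log2 values of -8.13 and -8.19 with Venus and -8.19 and -7.53 with OASIS. No array gave a level of lumican mRNA. Fmod, on chromosome 1 in band qE4, codes for fibromodulin, which steers collagen fibril growth and cross-linking. It had log2 values of -4.85 and -4.94 with Venus and -4.81 and -4.87 with OASIS. The 4 arrays lay within a narrow range and the groups overlapped, with a difference of 0.057 (SE 0.10).

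Hspg2, on chromosome 4 in band qD3, codes for perlecan, and both of its probes were annotated to NM_008305. The probe A_52_P422859 had log2 values of 2.996 and 3.28 with Venus and 3.37 and 3.48 with OASIS. The OASIS arrays were the higher ones, by a gap of 0.086 that was smaller than the range of 0.28 between the Venus replicates, and the difference was 0.29 (SE 0.14), from 0.15 without Venus replicate 1 to 0.43 without Venus replicate 2. The probe A_55_P1959648 had log2 values of -2.004 and -1.65 with Venus and -1.73 and -1.95 with OASIS. Its groups overlapped, and the difference was -0.011 (SE 0.17). The 2 probes of perlecan thus did not share a direction beyond their errors.

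Agrn, on chromosome 4 in band qE2, had 2 probes annotated to NM_021604. The probe A_55_P2009121 had log2 values of 5.73 and 5.82 with Venus and 5.33 and 5.56 with OASIS, without overlap and with a gap of 0.16 against a range of 0.24 between the OASIS replicates. The difference was -0.33 (SE 0.13), from -0.45 without OASIS replicate 2 to -0.21 without OASIS replicate 1. The probe A_55_P2009127 had log2 values of -3.20 and -3.12 with Venus and -3.95 and -3.98 with OASIS. Here the gap between the groups, 0.75, was wider than the range within either group, at most 0.084, and the difference was -0.81 (SE 0.10). Agrin was lower with OASIS by both probes, the dimmer one showing the larger difference, and neither reached a fold of 0.5. Among all probes tested, 45.7% and 13.2% had a larger change than these, respectively.

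Over the 10 probes tested, 6 had groups that did not overlap, which was also the case for 68% of all probes tested. The 6 were the 2 of Bcan, the 2 of Agrn, that of Dcn and 1 of Hspg2. Apart from Bcan, no tested probe of a member differed by as much as 1 on the log2 scale.

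The genes of link proteins lie beside those of the lecticans, each link protein gene next to one lectican gene in the gene order of the GRCm38.p6 annotation. Hapln4, beside Ncan, passed the threshold. Its log2 values were -6.98 and -7.18 with Venus, where it was not well above background, and -2.64 and -3.06 with OASIS. The OASIS group was at least 9.67-fold higher. Hapln4 was tested only through the OASIS arrays. Its limma adjusted p of 0.00209 is that of the fitted log2 difference of 4.23, which rests on unmeasured Venus values, and not of the bound. In corrected intensity, the OASIS spots read 154 and 116 units and the Venus spots 7.35 and 6.82 units. The Ncan probe stayed at the floor beside it, as given above.

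Hapln2, beside Bcan, showed the converse, a link protein gene without a measured level next to a lectican gene with one. It had log2 values of -8.37 and -8.39 with Venus and -7.04 and -6.15 with OASIS. Both OASIS values were higher than the Venus values, but no array was well above background, and the gene was not tested. Hapln1, beside Vcan, had 2 probes, each well above background on OASIS replicate 2 alone, at -5.99 and -5.97 on the log2 scale. Hapln3, beside Acan, was measured on all arrays by 2 probes, with differences of -0.020 (SE 0.11, limma adjusted p = 0.913) and 0.072 (SE 0.13, adjusted p = 0.712).

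**Figure D3:**
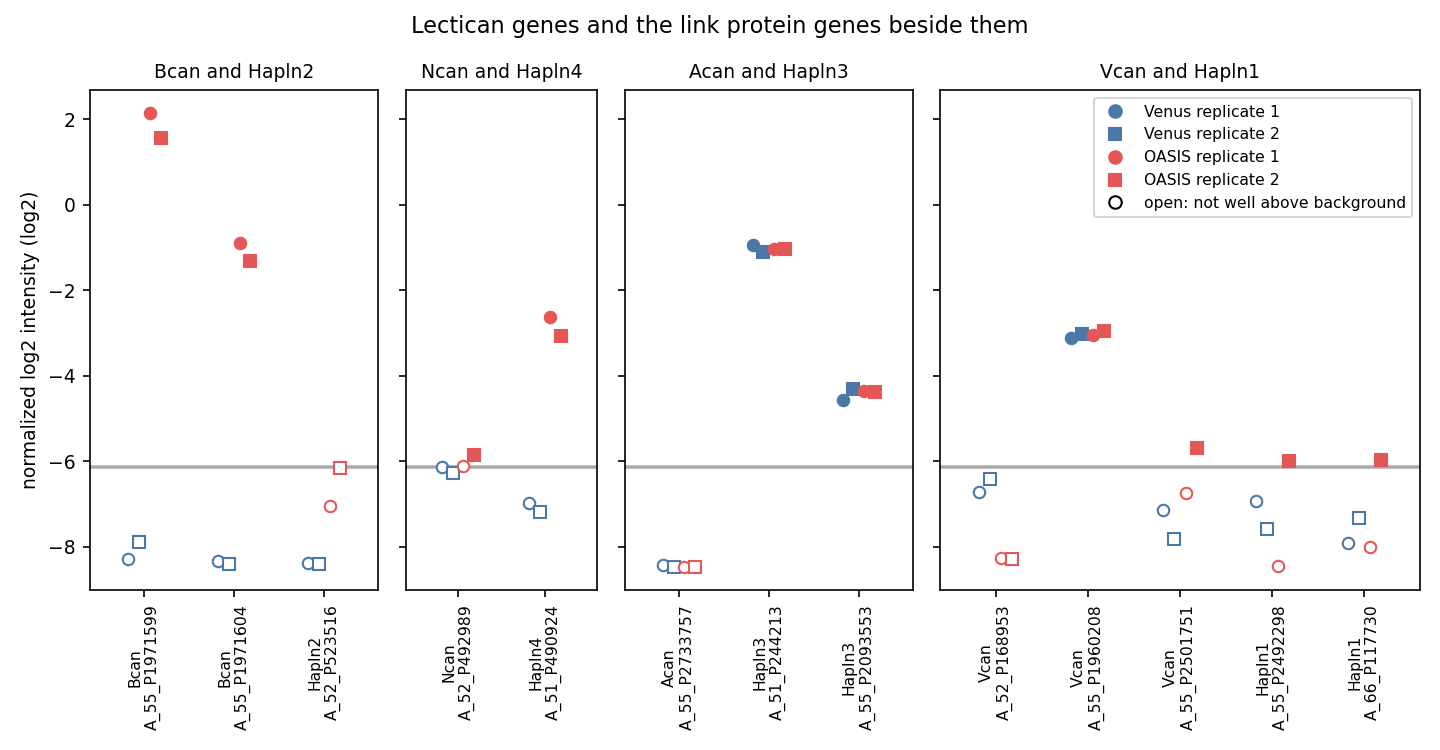
The vertical axis gives the normalized log2 intensity of each probe on each array, in 4 panels of a lectican gene and the link protein gene beside it, with Venus in blue, OASIS in red and open symbols for spots not well above background. The grey line is the floor of well-measured probes; Bcan has filled OASIS symbols in its panel while Hapln2 has none, and Hapln4 has filled OASIS symbols (-2.64 and -3.06) where Ncan lies at the floor.

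Of the leucine-rich genes near members, none passed the threshold. Kera and Epyc, which follow Lum and Dcn on chromosome 10, were background on all arrays. Prelp, next to Fmod, differed by -0.091 (SE 0.14, limma adjusted p = 0.662) by its brightest probe, and its 2 other probes were background. Optc, the gene beyond Prelp and Fmod in the same band, had log2 values of -4.87 and -4.58 with Venus and -3.74 and -3.73 with OASIS, a difference of 0.99 (SE 0.14, limma adjusted p = 0.0142), just under the fold of 2, without overlap of the groups. Without Venus replicate 2, the difference was 1.14 and passed. A further Optc probe was background on all arrays, with log2 values of -6.63 and -6.20 with Venus and -6.80 and -6.94 with OASIS.

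The nearest protein-coding genes with a tested probe on each side of the members gave 18 genes that were no members themselves. Of these, 2 passed the threshold by their brightest probe, Hapln4 and Isg15, beside 8.06% of all genes. Isg15, an interferon-induced ubiquitin-like protein whose gene lies next to Agrn, had log2 values of 5.98 and 6.41 with Venus and 3.63 and 5.24 with OASIS, and fell by 1.77 (SE 0.56, limma adjusted p = 0.0837). Without OASIS replicate 1, the difference was -0.96 and no longer passed. Without passing by the brightest probe, Isg20 beside Acan differed by 0.87 and Atp2b1, beyond Lum and its neighbours, by 0.59 on the log2 scale, and a further probe of each read 1.02 and 2.04, respectively. Pnck near Bgn differed by -0.64, Rfxank beside Ncan by 0.35 and Rnf223 beside Agrn by -0.26. The differences of Xrcc4, Cox7c, Btg1, Haus7, Btg2, Usp48 and 1700013G24Rik lay between -0.22 and 0.17 on the log2 scale. On either side of Bcan, Nes differed by -0.19 (SE 0.10, adjusted p = 0.231) and Gpatch4 by -0.23 (SE 0.15, adjusted p = 0.302) on the log2 scale.

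Other core proteins formed a list of 35 genes, syndecans, glypicans, further leucine-rich members and membrane or secreted chondroitin sulphate carriers. Of these, 23 were tested and 2 passed the threshold, 1 in each direction, that is 8.7% beside 8.06% of all genes. The median log2 difference was -0.18, beside -0.056 over all genes. Like the other gene and marker lists, this one was chosen with earlier results of these data known. Nothing is read from the counts of these lists. Cspg4, the NG2 proteoglycan of pericytes and glial precursors, had log2 values of -5.64 and -5.50 with Venus and -3.71 and -4.46 with OASIS, and rose by 1.48 (SE 0.27, limma adjusted p = 0.025). A further Cspg4 probe was not well above background with Venus and was at least 1.83-fold higher, a bound below the 2-fold of the threshold. Impg2, a hyaluronan-binding proteoglycan of the matrix between photoreceptors, had log2 values of -1.71 and -1.73 with Venus and -2.71 and -3.16 with OASIS, and fell by 1.22 (SE 0.18, adjusted p = 0.016). Without OASIS replicate 2, it differed by -0.99 and no longer passed. Normexp background correction left 0 of the 23 past the threshold. Sdc2, a syndecan, differed by 0.96 (SE 0.19, adjusted p = 0.0317) without reaching the fold of 2.

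The list of hyaluronan and lectican partners held 20 genes, of which 14 were tested and 2 passed, 14.3% beside 8.06% of all genes, with a median log2 difference of -0.17. One was Hapln4. The other was Cd44, the hyaluronan receptor at the cell surface, with log2 values of 3.76 and 3.61 with Venus and 2.62 and 2.49 with OASIS. This probe fell by 1.13 (SE 0.12, limma adjusted p = 0.00832). The 2 other Cd44 probes differed by -0.29 (SE 0.11, adjusted p = 0.121) and 0.17 (SE 0.11, adjusted p = 0.304), so that the fall was that of 1 probe, and the mean of the probes did not pass. The hyaluronan synthase Has2 differed by -0.057 (SE 0.11, adjusted p = 0.74), while Has1 and Has3 were background.

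Receptors and ligands of agrin, perlecan and the leucine-rich proteins made a list of 22 genes, of which 20 were tested and 3 passed, 15% beside 8.06% of all genes, with a median log2 difference of -0.35. Tgfb3, a ligand bound by decorin and biglycan, had log2 values of -3.59 and -3.25 with Venus and -1.26 and -1.25 with OASIS, and rose by 2.16 (SE 0.15, limma adjusted p = 0.00446). Rtn4r, the Nogo receptor of neurons, rose by 2.04 (SE 0.13, adjusted p = 0.00395), from -4.79 and -4.97 with Venus to -2.74 and -2.95 with OASIS. Fgf2, a growth factor held by heparan sulphate, fell by 1.004 (SE 0.18, adjusted p = 0.0232), at the edge of the threshold, and its other tested probe, at -0.88 (SE 0.17, adjusted p = 0.0309), did not pass the fold. Without Venus replicate 1 or OASIS replicate 2, Fgf2 differed by -0.99 and -0.78, respectively, and no longer passed.

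The agrin receptor Lrp4 and dystroglycan (Dag1), which binds agrin and perlecan, differed by -0.20 (SE 0.13, limma adjusted p = 0.32) and -0.31 (SE 0.11, adjusted p = 0.103) on the log2 scale, and Musk, the agrin co-receptor of muscle, was background. The 3 other Lrp4 probes differed by -0.55 (SE 0.12, adjusted p = 0.0388), -0.65 (SE 0.14, adjusted p = 0.0362) and -0.25 (SE 0.12, adjusted p = 0.198), so that all 4 Lrp4 probes were lower with OASIS by less than the fold required. The perlecan-binding nidogens differed by -0.48 (Nid1, SE 0.20, adjusted p = 0.143) and -0.37 (Nid2, SE 0.25, adjusted p = 0.334). The spots of both probes carried a mark for an uneven or outlying local background on all 4 arrays, with a detection score of 1. A dimmer Nid1 probe, well above background on both Venus arrays and 1 OASIS array, differed by -1.14 (SE 0.31, adjusted p = 0.062) and was past the threshold. Egfr, a receptor that decorin binds, differed by -0.54 (SE 0.18, adjusted p = 0.089) by its brightest probe, while a dimmer probe, measured on all arrays, was past the threshold at -1.53 (SE 0.15, adjusted p = 0.00721) and another read -0.91 (SE 0.14, adjusted p = 0.0187). The biglycan receptors Tlr2 and Tlr4 differed by -0.64 (SE 0.13, adjusted p = 0.0312) and -0.37 (SE 0.12, adjusted p = 0.0984), both less than the fold required.

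**Figure D4:**
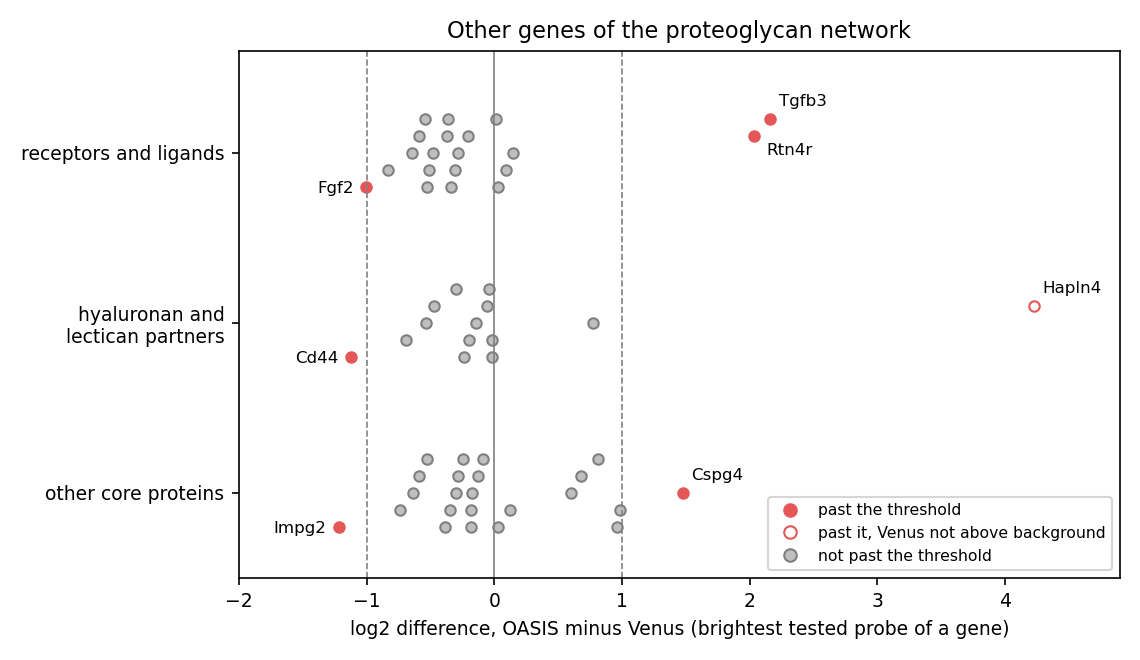
The horizontal axis gives the log2 difference, OASIS minus Venus, of the tested genes of the 3 lists by their brightest probe, one point per gene, with dashed lines at a change of 1 up and down and red for genes past the threshold. Most points lie between the dashed lines, and the open red point of Hapln4 (4.23) is a fitted value whose Venus level was not measured.

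Markers of other cells were counted over the same arrays, beside 8.06% of all genes tested that passed, 6.21% higher and 1.85% lower with OASIS. Of 6 endothelial markers, 1 was tested and 0 passed, and of 6 leukocyte markers, 4 were tested and 0 passed. Of 8 mesangial and fibroblast markers, 5 were tested and Pdgfra passed, at least 7.96-fold higher with OASIS and not well above background with Venus. Of 7 tubular markers, 3 were tested and Lrp2 passed, higher by 1.62 (SE 0.23, limma adjusted p = 0.0148), while its 4 other tested probes ranged from -0.16 to 1.68 and 1 of them passed. Of the podocyte markers, Wt1 passed by 1 probe (4.62, SE 0.21, adjusted p = 0.00215) while its other probe read -0.16, and Cd2ap passed by 1 probe (1.09, SE 0.11, adjusted p = 0.00832) while its 2 others read -0.37 and 0.31 on the log2 scale. Kirrel1 did not pass by its brightest probe, at -0.26 (SE 0.15, adjusted p = 0.253). Its other probe was past the threshold and lower with OASIS, at -1.11. The summed scaled intensity was 66748.8 and 70135.9 units with Venus and 54087.5 and 59282.2 units with OASIS for the mesangial and fibroblast list, and 46496.3 and 49510 units against 43383.2 and 48918.9 units for the podocyte list. It was 11864.7 and 11479.9 units with Venus and 8676.7 and 8741.79 units with OASIS for the leukocyte list, 14741.3 and 21029.5 against 15941.4 and 28155.9 units for the tubular list, and 36.8 and 31.1 against 36.2 and 37.5 units for the endothelial list. These sums are weighted to the brightest probes of each list. The part of these markers in the values of Dcn, Cspg4 and the other matrix genes was not tested.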

How the data were processed

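RNA of 2 Venus and 2 OASIS samples, grouped and numbered by their labels, was hybridised to 1-colour Agilent arrays. The deposited scanner output, written by Agilent Feature Extraction 12.1.0.3, gives a background-corrected intensity per spot with its error, and marks spots that are outliers or well above background. A further sheet deposited by the authors holds scaled intensity, the corrected one multiplied by a constant for each array (0.663 to 0.698), beside a detection score, gene symbols, bands and Gene Ontology terms. The lower score on a spot well above background went with an outlier mark of the spot or its background in every case.

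Here, control and outlier spots were dropped, the corrected intensity was put on a log2 scale, and the array's 75th percentile was subtracted. Probes entered the test if both arrays of either group were well above background. The groups were compared with limma (3.58.1; lmFit, then eBayes) under R (4.3.3, with the package data.table at version 1.17.8), with Benjamini-Hochberg adjustment over 31598 probes. The threshold was that of the study's methods. With 2 arrays a group, the smallest p of an exact permutation test is 0.333, so none was run on single values. In the gene lists, a gene was represented by its brightest tested probe. Where a group was not measured, the bound set the brighter group's mean against a floor, which on each array was the dimmest value well above background or, if higher, that of the probe. The number of arrays limits the precision.

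The members, gene lists and marker lists were chosen with earlier results of these data known. All probes of the 10 members are given. Of each gene list, up to 4 rises and 4 falls past the threshold are named, with the Hapln genes, Kera, Epyc, Prelp and Optc, the nearest tested gene on each side of a member, and markers past the threshold. The remaining genes given with values (Creb3l1, Sdc2, Has2, Lrp4, Dag1, Nid1, Nid2, Egfr, Tlr2, Tlr4, Snap25, Sox9, Comp, Col11a2, Col2a1 and Kirrel1) were chosen after their values were seen. Gene order came from a RefSeq annotation, GRCm38.p6, and since the array was annotated to another build, no coordinates are given. Probe sequences and protein sequences were not used here. Some marker genes are not reported here by name. The fit was tested on simulated data.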

Additional observations from a re-analysis of the deposited data

How the results depend on the processing

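The counts of member probes, other core proteins, hyaluronan and lectican partners, and receptors and ligands past the threshold were 2, 2, 2 and 3. Requiring a probe well above background on all 4 arrays left 0 member probes, since both Bcan probes drop out, and 1 partner (Cd44). The authors' detection score of 2 as the filter, added after seeing the data, left 1 member probe, the brighter Bcan probe. It gave 4 receptors and ligands, with Nid1 added at -1.14. Normexp background correction with an offset of 50 gave 0 other core proteins and 1 receptor or ligand (Tgfb3), and fitted differences of 5.62 and 3.06 for the Bcan probes. Without a filter on dim probes, 1 other core protein passed, 3 member probes (a Vcan probe at -1.71, background on all arrays, was added) and 3 partners (Hapln2 at 1.79, likewise background, was added), and with the methods' t-test 0 other core proteins and 1 partner. With the mean of a gene's probes, 1 partner passed. Receptors and ligands past the threshold numbered 2 both with the methods' t-test and with that mean. When each array was left out in turn, the counts ranged from 2 to 3 member probes, 1 to 4 other core proteins, 2 to 3 partners and 2 to 3 receptors and ligands. Among these, the third member probe was that of Vcan variant 1, without OASIS replicate 1, and the 4 other core proteins, which included Optc and Sdc2, came without Venus replicate 2, while 1, Cspg4, remained without OASIS replicate 2. Apart from the filters, which set the probes tested, the cause was not tested.

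Over all probes, 2641 passed, 1223 with normexp correction and, with the methods' t-test, 2124 before and 726 after Benjamini-Hochberg adjustment. With the replicate number as a block, the counts were 2, 2, 2 and 3. The shared numbers are not stated to pair the samples. The differences between replicates 1 and 2 correlated between the groups at r = 0.26 across 31590 probes, which are not independent, with 2 pairs. The pairing changed none of the counts of the members and lists.

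In the member counts that follow, settings that left a Bcan probe untested were left out. So were the Vcan probes that passed only under an alternative. Of 157 differences of member probes under the alternatives, 153 kept direction and side of the threshold, and 4 turned. They were Bgn (A_52_P162486, 0.61 to -0.031 over the arrays left out, the latter without OASIS replicate 1) and Hspg2 (A_55_P1959648, 0.0055 with normexp, -0.19 to 0.16 over the arrays left out, the latter without Venus replicate 2, and 0.10 without OASIS replicate 2). Of 379 for other named genes, 352 kept both, 20 no longer passed, 1 newly passed (Pnck, -1.03 without OASIS replicate 1) and 6 turned. The 379 did not include Optc, Sdc2, Hapln1 and Hapln2, each of which also passed under an alternative. The turned ones were Hapln3 (0.0046 with quantile normalization, and -0.10 to 0.065 over the arrays left out, the latter without Venus replicate 1), Cox7c (-4e-06 without Venus replicate 2, and -0.075 without OASIS replicate 1 to 0.15), Prelp (-0.21 to 0.029, the latter without OASIS replicate 1) and 1700013G24Rik (-0.73 to 0.29, the latter without Venus replicate 1). Isg15 no longer passed under 8 alternatives. Signal over background limits Bcan and Hapln4 to bounds and leaves Acan and Lum without a level and Ncan with one on a single array.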
